A study of Mus musculus with 8 samples.

Results

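The small leucine-rich proteoglycans were followed in mouse tumour cells sorted by EGFP driven from the promoter of PSF1, a subunit of the GINS replication complex encoded by Gins1. The genes were Dcn, Bgn, Aspn, Lum, Fmod, Prelp, Omd and Ogn, with Dpt beside them, 9 of the 18193 genes that had a probe set of their own. All probe sets that the platform annotation assigned to one of these symbols were taken, 20 of 45101. The set was chosen by the measured differences between EGFP-high and EGFP-low cells of these arrays. Those differences are therefore given without p-values, and limma's calls on them, counted further down, support nothing. Dpt does not belong to the family that gives the set its name: it encodes dermatopontin, a tyrosine-rich matrix protein that binds decorin and has no leucine-rich repeats.

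The cells were Lewis lung carcinoma (LLC) and colon26 colon carcinoma, mouse lines stably carrying EGFP driven by the cloned mouse PSF1 promoter, in every group. They were grown under the skin of mice for 4 weeks (LLC) or 2 weeks (colon26), dissociated and sorted by FACS. The 4 groups were LLC low, LLC high, colon26 low and colon26 high, each with 2 arrays numbered 1 and 2 and labelled biological replicates. The strain and age of the hosts, whether a line was 1 clone, whether tumours were pooled and whether host cells were gated out are details not given in the labels. Nor is it said that the replicates came from separate mice, so p-values measure the spread between these arrays, which may be technical.

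Small leucine-rich proteoglycans are secreted proteins whose leucine-rich repeats curve around collagen fibrils and set fibril spacing and diameter. Many carry chondroitin, dermatan or keratan sulphate chains, and several bind growth factors such as TGF-beta and innate immune receptors. In tumours they are made largely by fibroblasts and related mesenchymal cells. Decorin (Dcn), biglycan (Bgn) and asporin (Aspn) form class I, lumican (Lum), fibromodulin (Fmod), Prelp and osteomodulin (Omd) class II, and osteoglycin (Ogn) belongs to class III. Several of the genes lie side by side in the genome. In RefSeq's GRCm38.p6, Dcn is followed by Lum, Kera and Epyc, the order Ecm2, Aspn, Omd, Ogn forms another cluster, and Optc, Prelp and Fmod lie together elsewhere.

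Upstream sequences are shown for Aspn, Dpt and Bgn because Aspn was above background in LLC low cells alone, Dpt was highest in LLC and Bgn was highest in colon26 low cells. Each runs 5′ to 3′ over the 250 bases before the start of the gene in RefSeq's GRCm38.p6, with every CANNTG match (the E-box, a palindromic core for basic helix-loop-helix factors, searched on both strands) in capitals. The Aspn window is chr13:49544193-49544442, that of Dpt chr1:164796413-164796662 and that of Bgn chrX:73483351-73483600, all on the plus strand.
Aspn: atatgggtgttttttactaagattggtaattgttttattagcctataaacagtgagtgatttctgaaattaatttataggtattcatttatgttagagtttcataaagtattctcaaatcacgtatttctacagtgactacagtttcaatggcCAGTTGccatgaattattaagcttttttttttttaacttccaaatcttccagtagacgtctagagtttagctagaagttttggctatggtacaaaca
Dpt: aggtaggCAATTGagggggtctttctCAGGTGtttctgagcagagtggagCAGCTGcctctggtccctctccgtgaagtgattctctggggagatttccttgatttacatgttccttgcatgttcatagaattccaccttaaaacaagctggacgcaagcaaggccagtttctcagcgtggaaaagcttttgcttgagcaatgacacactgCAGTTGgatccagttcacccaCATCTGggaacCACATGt
Bgn: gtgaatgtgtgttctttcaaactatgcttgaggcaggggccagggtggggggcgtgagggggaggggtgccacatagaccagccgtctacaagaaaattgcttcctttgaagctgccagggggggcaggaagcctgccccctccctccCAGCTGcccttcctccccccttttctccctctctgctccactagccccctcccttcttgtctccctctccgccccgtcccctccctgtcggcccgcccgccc
The Dpt window held 6 CANNTG matches, and those of Aspn and Bgn held 1 each. The motif was present in 66.2% of 32851 promoter windows of this length. The Aspn window had a GC content of 30.0%, lower than all but 1.5% of the windows, while Bgn stood at 64.4% against a median of 52.4%. TATAAA, the TATA-box core, also searched on both strands, occurred 2 times in the Aspn window (12.4% of windows had it) and not in the Dpt window. Windows were found for 7 of the 9 genes, and Dcn and Lum were without one. A match describes letters in these windows only.

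Median signals of the 8 arrays lay between 4.76 and 5.02, and the highest probe set of an array lay between 14.37 and 14.53. Arrays numbered 1 and 2 differed in RNA representation: for 4 control transcripts, 3′ minus 5′ probe set signal had a median of 2.41 to 2.70 on those numbered 1 and −0.01 to 0.35 on those numbered 2. Within a line, arrays of the same number were therefore read as pairs. Of 7 epithelial markers, Cdh1, Krt19 and Cldn7 were under 5 on all 8 arrays. Krt8 was between 12.4 and 12.8 in LLC but between 5.31 and 5.95 in colon26. Krt18 was between 8.43 and 9.14 in LLC and between 3.84 and 5.05 in colon26. Over all 8 arrays Epcam lay between 5.99 and 7.18 and Cldn4 between 4.39 and 5.43. All signals are on a log2 scale, and values under 5 were taken as near background. In these sorted populations, fewer cells of a type and less RNA per cell cannot be told apart.

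**Figure D1:**
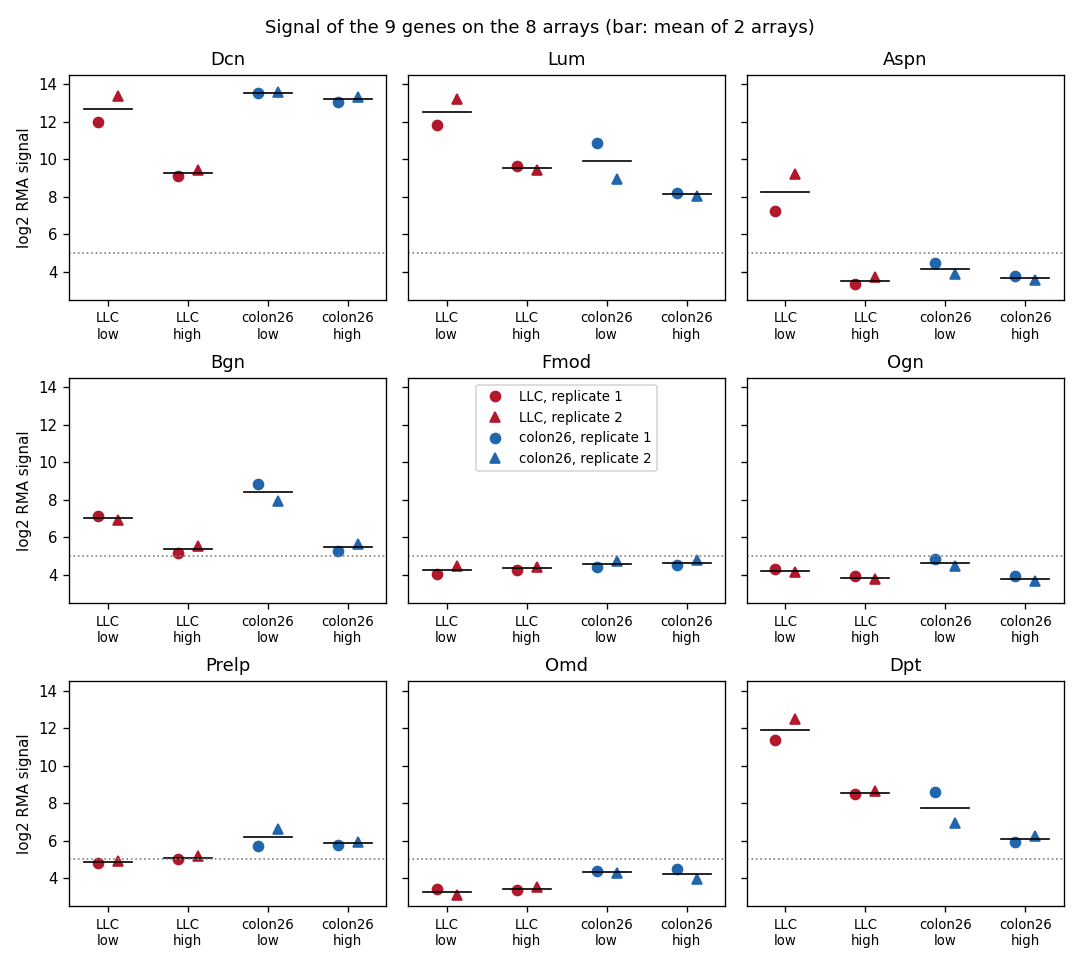
Signal (log2 RMA) of the 9 genes on the 8 arrays, one panel per gene on a common axis, with circles for arrays numbered 1, triangles for those numbered 2, bars for group means and a dotted line at 5. Aspn rises above the line on the LLC low arrays alone, Dcn is above 13 on all 4 colon26 arrays, and Fmod, Ogn and Omd stay under the line on every array.

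Decorin, which binds collagen fibrils and sequesters TGF-beta, gave signals of 11.97 and 13.36 in LLC low cells and 9.12 and 9.43 in LLC high cells (replicates 1 and 2). The LLC groups did not overlap, and the difference was −3.39 (SE 0.25), or 10.5-fold. In colon26 the Dcn signals were 13.51 and 13.60 in low and 13.07 and 13.33 in high cells. Here too both high arrays lay below both low arrays, but by −0.36 (SE 0.25) on average, and all 4 values stood near the top of the array's range. The pair differences of −2.85 and −3.94 in LLC did not overlap those of −0.44 and −0.27 in colon26. The limited room above a signal of 13 is stated beside this result, and its part in the small colon26 difference was not tested.

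Asporin, a class I member with an aspartate-rich N terminus, was detected only in LLC low cells, at 7.22 and 9.23. The other 6 arrays lay between 3.34 and 4.44, under the level taken as background. The LLC pair differences of −3.88 and −5.53 therefore ended at background, and the mean difference of −4.70 (SE 0.32) has no exact size. In colon26 the difference of −0.50 (SE 0.32) lay wholly among values near background. The second Aspn probe set followed the first (Pearson r = 0.995 over the 8 arrays) with 5.89 and 7.98 in LLC low cells and at most 3.99 elsewhere.

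Biglycan, a close relative of decorin and a ligand of Toll-like receptors 2 and 4, differed more between the sorts in colon26 than in LLC. Signals were 7.12 and 6.94 in LLC low and 5.19 and 5.55 in LLC high cells, a difference of −1.66 (SE 0.28) or 3.17-fold. In colon26 they were 8.83 and 7.96 in low and 5.26 and 5.66 in high cells, a difference of −2.93 (SE 0.28) or 7.62-fold. Neither line's groups overlapped. The 2 sorts of high cells thus had Bgn signals of 5.37 ± 0.25 and 5.46 ± 0.28 (SD, n = 2 each), close to the background level, and the lines differed in their low cells. All 3 Bgn probe sets had a lower signal in the high array of every pair.

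Lumican, a keratan sulphate proteoglycan that limits fibril growth, was above background on all 8 arrays. Signals were 11.81 and 13.21 in LLC low and 9.66 and 9.41 in LLC high cells, a difference of −2.97 (SE 0.42) or 7.86-fold. In colon26 they were 10.89 and 8.92 in low and 8.22 and 8.04 in high cells, a difference of −1.77 (SE 0.42) or 3.42-fold. The groups of each line did not overlap, but colon26 low array 2 minus array 1 was −1.97. The pair differences of Lum ranged from −2.15 to −3.80 in LLC and from −0.88 to −2.67 in colon26, and these ranges overlapped.

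Dermatopontin, which binds decorin and collagen, had signals of 11.37 and 12.48 in LLC low and 8.48 and 8.63 in LLC high cells, a difference of −3.36 (SE 0.39) or 10.3-fold. In colon26 Dpt stood at 8.61 and 6.91 in low and 5.94 and 6.27 in high cells, a difference of −1.66 (SE 0.39) or 3.15-fold. Dpt and Lum resembled each other in that the LLC low array numbered 2 and the colon26 low array numbered 1 were the higher of their groups.

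**Figure D2:**
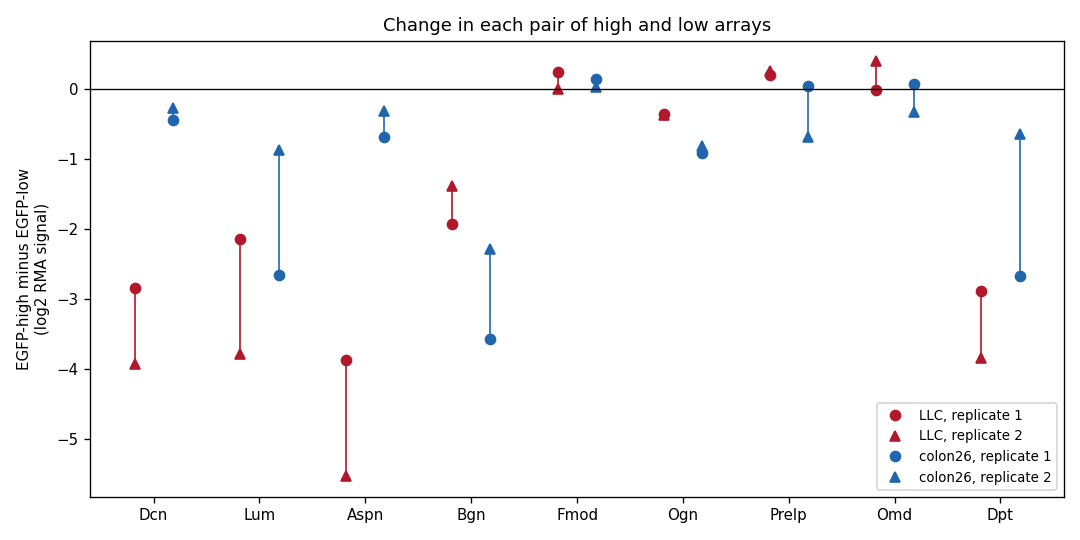
EGFP-high minus EGFP-low (log2 RMA signal) in each pair of arrays for the 9 genes, LLC in red and colon26 in blue, with circles for pair 1, triangles for pair 2 and a line joining the pairs of a line. Dcn, Lum, Aspn, Bgn, Ogn and Dpt are below 0 in all 4 pairs, and the LLC and colon26 points of Lum, Fmod and Omd overlap. The share of all genes with such an overlap was not counted.

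The remaining class II and III genes were low. Prelp, a basic protein that anchors basement membranes to connective tissue, gave 4.81 and 4.91 on LLC low arrays and 5.01 and 5.17 on LLC high arrays. In colon26 it gave 5.72 and 6.64 (low) and 5.76 and 5.95 (high). Its sorts differed by 0.23 (SE 0.21) in LLC and −0.32 (SE 0.21) in colon26. The second Prelp probe set gave the other sign in 3 of 4 pairs, and in LLC it lay between 3.53 and 3.76, near background. With the mean of both probe sets the colon26 pair differences were −0.67 and −0.75 (mean −0.71), so the size in colon26 depends on the probe set. Osteoglycin, a class III member, ranged from 3.66 to 4.84, and both high arrays lay below both low arrays in each line, by −0.37 and −0.87 (SE 0.16 each). Ogn and its neighbour Omd (3.11 to 4.47), a bone matrix protein, never reached 5, although Aspn beside them reached 9.23. Fibromodulin, a collagen-binding keratan sulphate proteoglycan, ranged from 4.05 to 4.78 in its highest probe set. Of its 6 probe sets, 1 reached 5.39 on a single array, a colon26 low one.

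Counted over all 9 genes, both high arrays lay below both low arrays for 6 in LLC and for 6 in colon26, the same genes: Dcn, Lum, Aspn, Bgn, Ogn and Dpt. Among the 12177 genes tested, 14.6% did so in LLC and 9.02% in colon26. Of the 6 members among those tested 5 did so in each line, as Ogn was not tested. A signal above 5 on at least 2 arrays was met by 6 of the 9 genes, and Aspn met it through the LLC low arrays alone. With pairs as the block in limma, 5 of the 6 members tested were lower in LLC high cells at the adjusted p threshold of 0.05 and 0 were higher. Of all genes tested 6.04% were lower and 4.98% higher (11.0% either way). In colon26 3 were lower (Lum, Bgn and Dpt) and 0 higher, where 1.58% of all genes were lower and 2.18% higher (3.77% either way). The LLC change was lower than the colon26 change for 2, Dcn and Aspn, where 0.985% of all genes were lower and 0.427% higher (1.41% either way). These 2 calls were lost after quantile normalization and without the replicate block. Leaving out either colon26 pair also lost them. Without colon26 pair 1 or pair 2 this difference was −3.12 and −2.95 for Dcn and −4.39 and −4.01 for Aspn. In colon26 the calls of Lum and Dpt were lost without either colon26 pair, when the differences were −0.88 and −2.67 for Lum and −0.64 and −2.67 for Dpt. They were also lost without the replicate block, with no filter, after quantile normalization, with the mean of all probe sets, with probe sets kept apart, and with trend and robust moderation. Without the replicate block limma called none of the 9 genes in either line, and with trend and robust moderation Lum and Dpt were not called in LLC. These counts rest on the contrasts known when the genes were chosen and support nothing. The median difference over the 9 genes was −1.66 in LLC and −0.50 in colon26, beside 0.04 and 0.08 over all genes tested. It was −1.02 and −0.43 without Dpt.

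**Figure D3:**
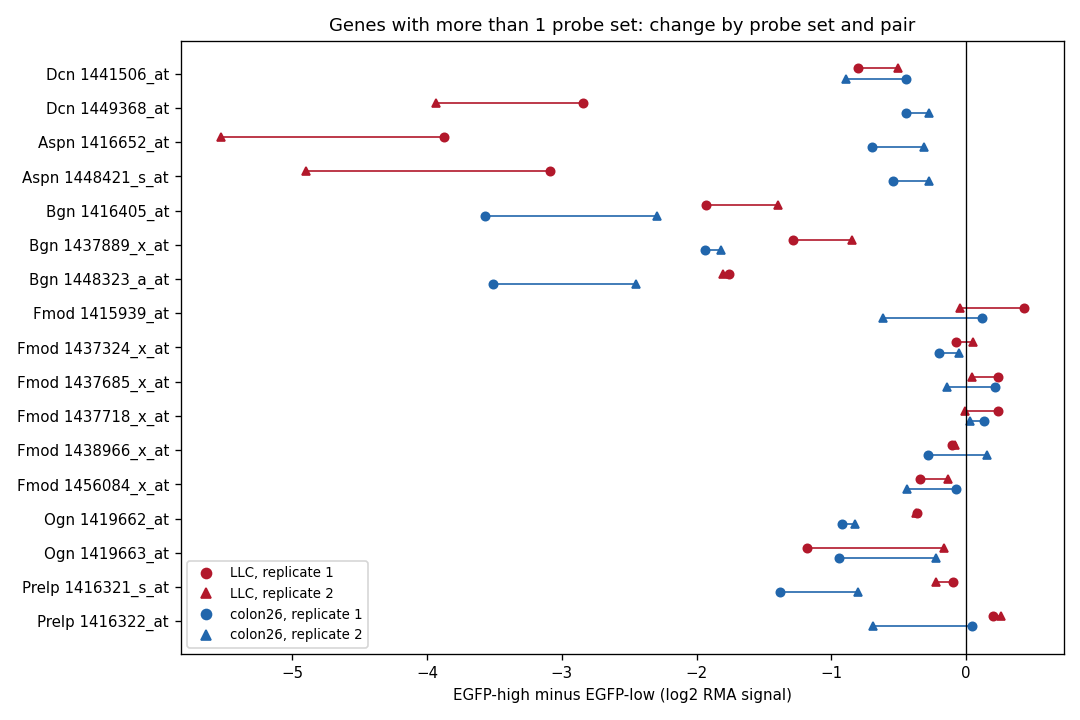
EGFP-high minus EGFP-low (log2 RMA signal) by probe set for the 6 genes that had more than 1, LLC in red and colon26 in blue, circles for pair 1 and triangles for pair 2. The probe sets of Aspn and of Bgn lie on the same side of 0 in every pair, those of Fmod scatter around 0, and the Dcn probe sets differ in size in LLC.

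Probe sets of 1 gene agreed in the sign of all 4 pairs for Dcn, Aspn, Bgn and Ogn. The less intense Dcn probe set had LLC differences of −0.80 and −0.50, far smaller than those of the other one. It was under 5 on all 4 LLC arrays, where background limits a difference. In colon26 it separated the replicate numbers, with 8.52 and 5.77 in low and 8.07 and 4.88 in high cells. With the mean of both probe sets the Dcn difference was −2.02 in LLC and −0.51 in colon26.

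The lines were then compared at the mean of their sorts, a contrast in which the high minus low difference cancels. LLC tumours had grown for 4 weeks and colon26 tumours for 2 weeks, so line and growth time cannot be told apart. The contrast uses the same arrays, and limma was fitted on the 4 pair means with the replicate number as a block. Dcn was lower in LLC, at −2.41 (SE 0.20, limma adjusted p = 6e-05), and Dpt was higher by 3.31 (SE 0.29, limma adjusted p = 7.5e-05), each in 2 of 2 numbers. Lum was higher in LLC by 2.00 (SE 0.34, limma adjusted p = 0.0022). For Bgn the difference was −0.73 (SE 0.17, limma adjusted p = 0.0092) and for Prelp −1.04 (SE 0.18, limma adjusted p = 0.0023), also in 2 of 2 numbers. Aspn was higher in LLC by 1.98 (SE 0.33) and passed, but it entered the test through the LLC low arrays alone, so its p is not given. All 6 tested genes passed, where 50.0% of all genes did, so passing does not set them apart. Without the replicate block the limma adjusted p was 0.043 for Dcn and 0.024 for Dpt but 0.10 for Lum, 0.18 for Bgn and 0.14 for Prelp. With trend and robust moderation that of Lum was 0.12.

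Set out by sort, the difference between the lines was not of 1 kind. For Dcn it lay mostly in high cells: LLC minus colon26 was −3.95 and −3.90 there and −1.55 and −0.24 in low cells (numbers 1 and 2). For Aspn it was 2.78 and 5.37 in low cells and −0.40 and 0.15 in high cells, where both lines were at background. Dpt was higher in LLC in both sorts, by 2.75 and 5.56 in low and 2.54 and 2.36 in high cells. For Bgn it was −1.71 and −1.02 in low cells and −0.08 and −0.12 in high cells. The adjacent genes Dcn and Lum thus ran in opposite directions between the lines, and their Pearson r over the 8 arrays was 0.08.

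**Figure D4:**
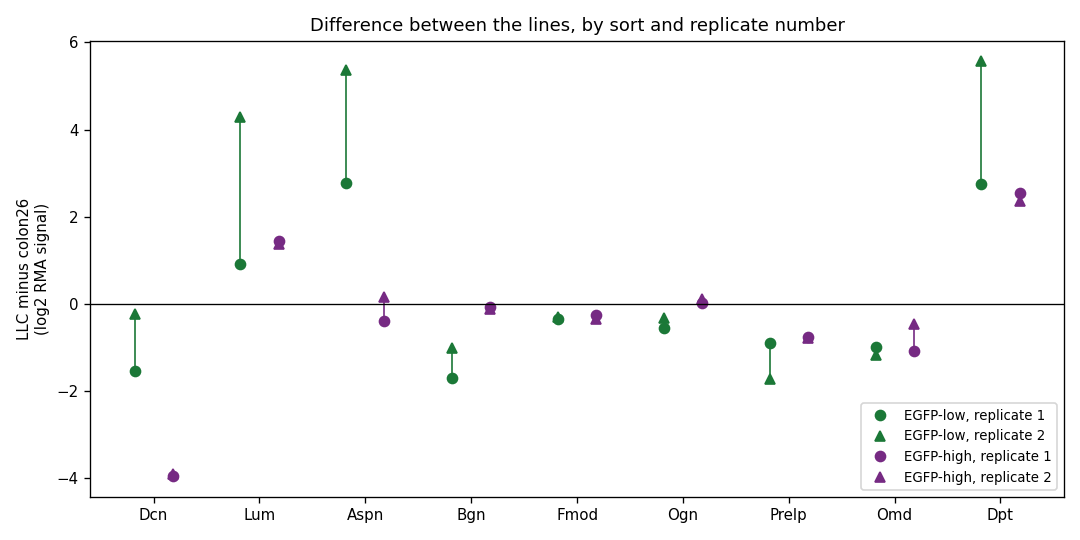
LLC minus colon26 (log2 RMA signal) for the 9 genes, in EGFP-low cells (green) and EGFP-high cells (purple), circles for arrays numbered 1 and triangles for those numbered 2. Dpt and Lum lie above 0 in both sorts, Dcn lies near −3.9 in high cells, and Aspn lies far above 0 in low cells and near 0 in high cells.

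By group mean, Dcn ran from colon26 low (13.56 ± 0.06) through colon26 high (13.20 ± 0.18) and LLC low (12.67 ± 0.99) to LLC high (9.27 ± 0.22; SD, n = 2 each). LLC low lay within its own spread of colon26 high. Lum ran from LLC low (12.51 ± 0.99) through colon26 low (9.91 ± 1.39) and LLC high (9.54 ± 0.18) to colon26 high (8.13 ± 0.13), with the middle groups within their spread. Dpt ran from LLC low (11.92 ± 0.78) through LLC high (8.56 ± 0.11) and colon26 low (7.76 ± 1.20) to colon26 high (6.11 ± 0.23), and again the middle groups were within their spread. Bgn was highest in colon26 low (8.39 ± 0.62), then LLC low (7.03 ± 0.13), with both high groups last and within their spread of each other.

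Markers of some other cell types were also lower in the high cells of both lines, and those of others were not. The mean signal of 13 fibroblast markers was 7.78 and 7.79 for LLC low arrays and 6.13 and 6.46 for LLC high arrays, and in colon26 it went from 9.85 and 9.50 (low) to 8.85 and 9.20 (high). Of these markers 12 were lower in both LLC pairs and 9 in both colon26 pairs, as were 32.3% and 20.4% of all genes tested. None was under 5 on all arrays, and Col1a2, a type I collagen chain, stayed at 13.17 and 13.19 in colon26 high cells. The mean of 11 macrophage markers was 6.78 and 6.96 on the LLC low arrays against 5.35 and 5.47 on the LLC high arrays, with 10 lower in both pairs. In colon26 it was 8.74 and 8.19 in low and 5.54 and 5.32 in high cells, with 11 lower in both pairs. The mean of 9 endothelial markers differed by −0.15 and −0.42 (LLC) and by −0.66 and −1.08 (colon26), with Tek and Vwf under 5 throughout. Of 8 smooth muscle and pericyte markers, 1 was lower in both LLC pairs and 7 in both colon26 pairs, with Myh11 and Notch3 under 5 throughout. The mean of the lymphocyte markers differed by 0.20 and 0.12 in LLC and by 0.02 and −0.37 in colon26 (pairs 1 and 2). For chondrocyte and osteoblast markers it was 0.21 and 0.06 in LLC and −0.02 and −0.61 in colon26. For the epithelial markers it was 0.11 and 0.21 in LLC and −0.12 and −0.38 in colon26. The 3 adipocyte markers measured (Adipoq, Lep and Cidec) were under 5 on every array. The part of these cell types in the proteoglycan differences was not tested.

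The genes whose signals over the 8 arrays were most like those of 3 members were listed as a description, over arrays that share lines and replicate numbers. Nearest to Dcn were Twsg1 (r = 0.99), a BMP-binding protein, then Fam114a1, App, Lamc1 and Dusp1 (r at least 0.98). Nearest to Aspn were Mmp12, the macrophage elastase, and the proteoglycan Tgfbr3 (r = 0.99 each), then Scarb2, Vwa5a and Dbp (r at least 0.97). Nearest to Bgn were Fermt3, the integrin activator of blood cells (r = 0.99), the Fc receptor gene Fcgr3, Ctla2a, the SPARC relative Sparcl1, and Tyrobp, a signalling adaptor of myeloid cells (r at least 0.97). Among the members themselves, Aspn ran with Lum (r = 0.91) and Dpt (r = 0.89), and Bgn with Ogn (r = 0.94). Dcn had no r above 0.57 with any other member.

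Genes that act with these proteoglycans were taken from 8 lists, which share no gene with the 9 or with each other. The fibrillar matrix list shares Col1a1, Col1a2, Col3a1 and Mfap5 with the fibroblast markers above. In LLC high cells, 9 of 14 fibrillar matrix genes tested fell and 0 rose (list median −1.34 against 0.04 for all genes tested, limma at adjusted p under 0.05). Of all genes tested 6.04% fell and 4.98% rose, against which the counts of all 8 lists in LLC are to be read. Among them were Fn1, fibronectin (−2.81, SE 0.21, limma adjusted p = 9.7e-05), Col1a1 (−2.08, limma adjusted p = 0.00033) and Col1a2 (−3.40, limma adjusted p = 0.00071). Of 11 matrix proteases 9 fell (median −1.38), led by Mmp12 (−3.79, with both high arrays under 5). Adamts1 (−2.66), which cleaves large proteoglycans, and Mmp3 (−2.97), a stromelysin, followed. Mmp12 entered the test through its LLC low arrays (6.91 and 9.12), so its call here carries no weight. Of 13 collagen maturation genes 5 fell (median −0.50), among them the lysyl hydroxylases Plod2 (−1.53) and Plod1 (−0.97) and the prolyl hydroxylase subunit P4ha2 (−1.17). Of 19 ligands and receptors 6 fell (median −0.45), including Tlr4, a receptor for soluble biglycan (−1.33), Tgfb3, a ligand of the family that decorin binds (−0.95), and Lrp1, an endocytic receptor (−1.12). Each gene named here was lower in 2 of 2 LLC pairs.

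Of 16 other proteoglycans 4 fell in LLC (median −0.41), among them versican Vcan (−2.90), the betaglycan gene Tgfbr3 (−1.02) and syndecan 2, Sdc2 (−0.98). Of 19 enzymes that build chondroitin and dermatan sulphate 3 fell (median −0.18). They were the epimerase-like gene Dsel (−1.99) and the sulphotransferases Chst15 (−0.77, with both high arrays under 5) and Chst11 (−0.72). Of 5 keratan sulphate enzymes tested 0 passed limma in LLC, with 3 at an unadjusted p under 0.05. B4galt1 (−0.53) and B3gnt2 (−0.39) were named for the highest mean signal. The median of the 5 enzymes was nevertheless 0.35, and with a filter of 7 limma called 1, which was higher. Of 5 other leucine-rich matrix genes tested 0 passed in limma, with 1 at an unadjusted p under 0.05. Those with the highest mean signal were Podn (0.08) and Chadl (0.20). The family genes beside the members in the genome were near background, with Kera at most 4.45, Epyc at most 3.84, Ecm2 at most 4.33 and Optc at most 5.08.

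**Figure D5:**
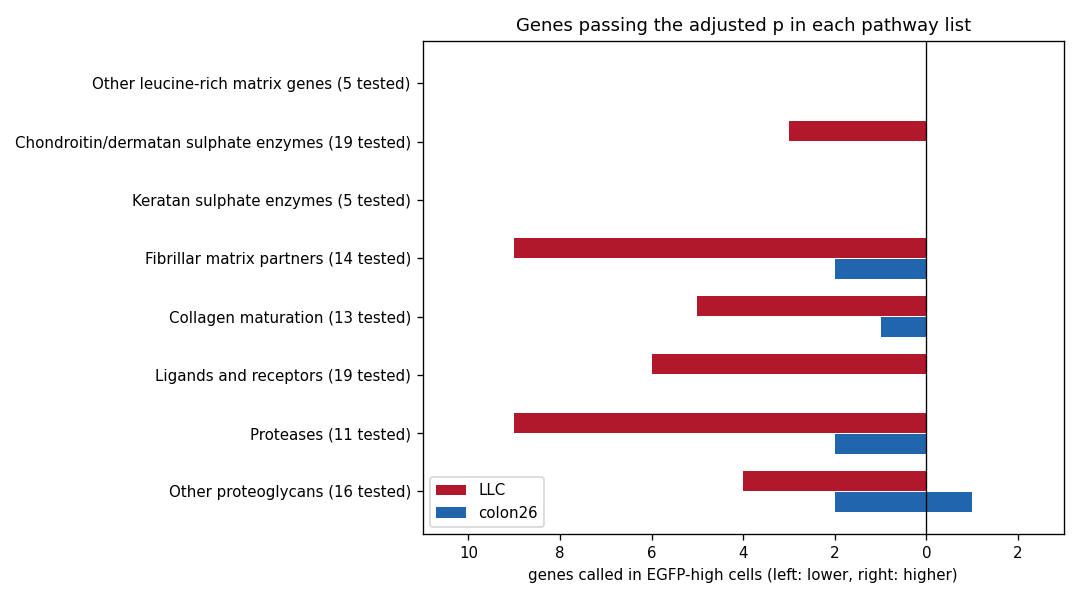
Number of genes passing limma's adjusted p in each of the 8 lists, in LLC (red) and colon26 (blue), with genes lower in EGFP-high cells to the left of 0 and genes higher to the right. In LLC 9 fibrillar matrix genes and 9 proteases are lower, and in colon26 the largest count is 2 lower, with 1 proteoglycan gene higher.

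In colon26 high cells, where 1.58% of all genes tested fell and 2.18% rose, fewer of these genes passed. Of 14 fibrillar matrix genes 2 fell (list median −0.43 against 0.08 for all genes tested), Col6a3 (−3.07, SE 0.20, limma adjusted p = 1.5e-05) and Col5a2 (−4.06, SE 0.50, limma adjusted p = 0.0017). Of 11 proteases the collagenase gene Mmp13 (−1.69) and the gelatinase gene Mmp2 (−0.77) fell. Of 13 collagen maturation genes Lox, the lysyl oxidase, fell (−2.48, with both high arrays under 5). This call was lost without the replicate block, with no filter, with a filter of 7 and after quantile normalization. It was also lost with the mean of all probe sets and with trend and robust moderation. Of 16 other proteoglycans Srgn, serglycin of blood cell granules (−3.37), and Prg4, lubricin (−3.07, with both high arrays under 5), fell. Esm1, endocan, rose (1.30). Prg4 entered the test through its colon26 low arrays alone (8.78 and 6.79), so its call here carries no weight. In limma 0 of 19 ligands and receptors passed (median −0.16), with 4 at an unadjusted p under 0.05. Named for the highest mean signal, Met stood at 0.17 and Itgb1 at 0.20. Of 19 chondroitin and dermatan sulphate enzymes 0 passed limma, with 0 at an unadjusted p under 0.05, Chst11 at −0.33 and Chsy1 at 0.38. Of 5 keratan sulphate enzymes 0 passed limma, with 1 at an unadjusted p under 0.05. Of 5 other leucine-rich matrix genes 0 passed limma and 0 had an unadjusted p under 0.05.

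The size of the LLC lists depended on single pairs for 4 of them. Without LLC pair 1 or pair 2, the counts were 1 and 3 for collagen maturation, 4 and 0 for ligands and receptors (limma, 5 at an unadjusted p under 0.05 in the latter), 1 and 1 for other proteoglycans, and 1 and 1 for chondroitin and dermatan sulphate enzymes. For fibrillar matrix genes they were 9 and 8, and for proteases 8 and 6. Without either colon26 pair, 3 ligands and receptors were called in LLC. In colon26 the counts of fibrillar matrix genes were 1 and 2 without pair 1 or pair 2 (3 without either LLC pair). Without colon26 pair 1 or pair 2 limma called 0 proteases (3 and 5 at an unadjusted p under 0.05) and 0 collagen maturation genes (3 each), and without either LLC pair it called 1 protease. Esm1 was no longer among the calls without colon26 pair 2, when 0 other proteoglycans rose. Without the replicate block limma called 0 genes of the LLC fibrillar and protease lists, with 9 of each at an unadjusted p under 0.05.

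Between the lines, at the mean of the sorts, 28.2% of all genes tested were lower and 21.8% higher in LLC. As above, line and growth time cannot be told apart here. Of 14 fibrillar matrix genes 6 were lower and 2 higher (median −0.16 against −0.08 for all genes tested), among the lower ones Col1a2 (−5.73), Mfap5 (−5.34) and Col1a1 (−4.13). Of 11 proteases 6 were lower, with Mmp2 (−5.88), Mmp13 (−5.07, under 5 on every LLC array) and Mmp3 (−5.55) named, and 4 higher. Among enzymes that build the sugar chains, Chst15 (−4.79) and Chst1 (−2.39) were lower in LLC and Chst5 (2.48) higher. The 19 chondroitin and dermatan sulphate enzymes had 7 lower and 3 higher (median 0.05), and the 5 keratan sulphate enzymes 1 lower and 2 higher (median 0.30). Chst5 was under 5 on 4 of 4 colon26 arrays, so its size is not exact, and it entered the test through LLC alone. Mmp13 entered the test through colon26 alone. The calls of Chst5 and Mmp13 therefore carry no weight. Of 5 other leucine-rich matrix genes Chadl was lower (−1.03). Nyx (−0.72) and Chad (−0.69) also passed, but both were under 5 on every LLC array and entered the test through colon26 alone. In that list limma called 0 without the replicate block (1 at an unadjusted p under 0.05) and 1 after quantile normalization. After median centring 3373 genes were higher and 2615 lower, against 2658 and 3436 as deposited, with the median of all genes moving from −0.08 to 0.08. Without the replicate block 5 fibrillar matrix genes and 5 proteases passed. Of the chondroitin and dermatan sulphate enzymes 1 then passed, and of the keratan sulphate enzymes 2.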

How the data were processed

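Each of 8 sorted samples gave biotin-labelled cRNA for its own Affymetrix array. The authors used RMA, per the submitters' processing notes, and they deposited log2 signals per probe set. No source used here gives the software version or the set of arrays that RMA was run on. For the colon26 samples the description field names LLC. Their titles and cell line fields say colon26 and were followed.

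Probe sets with 1 symbol in the platform annotation (34945) were kept and renamed through RefSeq's GRCm38.p6. Probe sets with several symbols (932) or none (9160) and 64 controls were left out. Of several probe sets of a gene the one highest on average stood for it, and the 12177 genes above log2 5 on at least 2 arrays were tested with limma 3.58.1 in R 4.3.3, with Benjamini-Hochberg adjustment at 0.05. High minus low was fitted on 8 arrays with line and replicate number together as a block (2 degrees of freedom left, prior 8.25). The pairing comes from the data: deviations of the 2 sorts of a line correlated at 0.89 (LLC) and 0.84 (colon26) over genes. Those of different lines correlated at 0.74 to 0.84, and the line contrast was fitted on 4 pair means blocked on the number (1 left, prior 6.57). The scripts were tested on simulated data. The 2 arrays in each group limit the precision.

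The genes, lists and tests were chosen with earlier results of these data known. All 9 genes were named, and from each list up to 3 genes passing by smallest p, or where none passed the 2 with the highest mean. Optc, Kera, Epyc and Ecm2 were named as neighbours, and Krt8, Cdh1, Col1a2 and other markers with their values known. The alternatives tried were no filter, a filter of 7, quantile normalization, median centring, trend and robust moderation, other uses of probe sets, only the arrays of a line, all arrays in place of pair means, no replicate block, and leaving out each pair. Figures were drawn with matplotlib 3.10.9.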

Additional observations from a re-analysis of the deposited data

Results flagged for a closer look

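Among the pathway genes named, 11 had changes in LLC and colon26 that differed by limma's test of the difference itself (adjusted p from 0.0046 to 0.033). LLC change minus colon26 change was −3.50 for Mmp12, −3.06 for Col1a2, −2.49 for Fn1, −2.43 for Mmp3, −2.43 for Vcan, −1.85 for Adamts5, −1.80 for Plod2 and −1.78 for Dsel, so the LLC change was the more negative. It was 2.74 for Prg4, 2.71 for Srgn and 1.66 for Col6a3, whose colon26 change was the more negative. Several of these sizes are limited by the array's range. Prg4 was under 5 on all 4 LLC arrays and entered the test through colon26 low cells alone, so its p carries no weight. Mmp12 in colon26 lay between 4.46 and 5.21, near background. It entered the test through LLC low cells, so its p carries no weight either. Both LLC high arrays of Mmp12 and of Adamts5 were under 5. In colon26 Col1a2 (13.17 to 13.65) and Fn1 (13.46 to 13.87) lay near the top of the range.

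Of 12177 genes 1.41% passed this test. Limma called 0 of them without colon26 pair 1 (3118 at an unadjusted p under 0.05) and 0 without colon26 pair 2 (1289). All 11 calls were also lost after quantile normalization and without the replicate block, and that of Dsel without LLC pair 2. With no filter the calls of Dsel, Plod2 and Col6a3 were lost, and 1 fibrillar matrix gene was still called. The sign of the difference stayed the same for 11 of 11 genes whichever pair was left out. Col1a2, for example, stood at −3.20 without colon26 pair 1 and −2.92 without colon26 pair 2.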

How the results depend on the processing

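The directions of the 9 genes' differences that passed limma in LLC, in colon26 and between the lines did not turn under any alternative run. Of 53 alternative values for the line difference, 48 kept their side of the threshold and 5 lost it, 4 of them without the replicate block. LLC high minus low called 1342 genes, 0 without the replicate block (794 at an unadjusted p under 0.05 in limma), 2419 with probe sets kept apart, and 396 to 1776 over all other alternatives. Leaving out pairs gave 396 to 943, the lowest without LLC pair 2 and 716 without LLC pair 1. In colon26 459 genes were called, with 266 higher and 193 lower. There were 3 without the replicate block, 156 after quantile normalization (44 higher, 112 lower), 771 after median centring (539 higher, 232 lower), and 59 to 552 when pairs were left out, the lowest without colon26 pair 2 and 186 without colon26 pair 1. For the difference between these changes 172 were called, against 0 without the replicate block (270 at an unadjusted p under 0.05 in limma), 56 with no filter, 272 with a filter of 7, 4 after quantile normalization, 374 after median centring, 320 with trend and robust moderation, and 0 to 175 when pairs were left out (0 without either colon26 pair, 90 without LLC pair 2). Between the lines 6094 were called, 812 without the replicate block, 10099 with no filter and 9479 with probe sets kept apart. Leaving out a pair left no residual degrees of freedom for this contrast, so it was not run. The median difference of the 9 genes was −3.17 in LLC and −1.08 in colon26 over the members above the filter, and −1.02 and −0.43 without Dpt. In colon26 it was −0.42 after median centring, −0.71 with the mean of all probe sets, and −0.64 and −0.70 when pair 1 or pair 2 was left out. In LLC it was −1.39 and −1.93 when a pair was left out. Array signal limits what can be read of Fmod, Ogn and Omd, which stayed near background.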
